A study of Mus musculus with 2 samples.

Results

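The genes of collagens, laminins and other basement membrane proteins were taken from the table of PB and PB-TERRA 46C mESCs by their symbols. The rule took every collagen chain, every laminin chain, the nidogens Nid1 and Nid2, and Hspg2, Agrn, Sparc and Fn1. It found 61 of the 18888 genes in the table. Of these, 22 form the basement membrane group (collagen IV chains, laminin chains, nidogens, Hspg2, Agrn and Sparc), 38 are fibrillar and other collagens, and Fn1 was kept apart because the rule places it in neither group.

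46C is a mouse embryonic stem cell line, and both cultures were at passages 21 to 24, on gelatin-coated plates in conventional mESC medium. PB mESCs carry the empty PiggyBac (PB) vector, a transposon plasmid, and PB-TERRA mESCs carry the same vector with an insert of telomeric repeats that is transcribed into polyadenylated TERRA, the noncoding RNA of telomeres. Whether either line came from 1 clone or from a pool is not given in the sources used here. Each culture gave a single RNA library (1 per condition), so no spread between cultures can be estimated, no test between the conditions was possible, and the differences below are between 2 libraries. The comparison asks which of these genes have another level when polyadenylated TERRA is overexpressed. In a bulk library, fewer cells of a type and less RNA per cell cannot be told apart.

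A basement membrane is a thin sheet of matrix on which epithelial cells sit. Laminins, trimers of an alpha, a beta and a gamma chain, polymerize on the cell surface, collagen IV forms a second network, and nidogens and the heparan sulfate proteoglycans perlecan (Hspg2) and agrin (Agrn) bind the networks together. In the early mouse embryo the primitive endoderm and its parietal derivative secrete large amounts of laminin and collagen IV, and undifferentiated mESCs make laminin themselves. Fibrillar collagens such as types I, III and V belong to the interstitial matrix of mesenchymal cells.

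Levels are in FPKM, which divides fragments by gene length and by library depth, so that levels of different genes can be set side by side within a library. A difference is the log2 of the quotient of FPKM + 0.1 in PB-TERRA and FPKM + 0.1 in PB, called the log2 ratio. Genes with at least 1 FPKM in at least 1 library passed the filter, and 0.5 on this scale, a 1.41-fold difference, was the size threshold in both directions. The filter was passed by 12263 genes, with a median log2 ratio of -0.0044 and an SD of 0.31 across genes. Low FPKM of short genes fell near multiples of 1 read, which gave 24.8 M reads for PB and 25 M for PB-TERRA. Read numbers below are approximate, since they were calculated from rounded FPKM and gene length. The 95% intervals are exact (Clopper-Pearson) intervals of the log2 ratio of these reads, and they cover counting error only.

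Of the 61 genes, 24 passed the filter, 14 of them in the basement membrane group, 9 among the other collagens, and Fn1. The other 37 stayed below 1 FPKM in both libraries. The most abundant was Col18a1, which encodes a basement membrane-associated collagen with a long triple helix interrupted many times, at 108.15 FPKM in PB and 117.77 in PB-TERRA. It was followed in PB by Nid2 (89.77 FPKM), Fn1 (89.17 FPKM), Sparc (83.46 FPKM) and Hspg2 (57.18 FPKM). Together these 5 genes held 62.9% of the summed FPKM of the 61 genes in PB. Within PB the counting intervals of Nid2 (88.1 to 91.5 FPKM) and Fn1 (87.9 to 90.5 FPKM) overlapped, so the order of these neighbours is not resolved at this depth. In PB-TERRA the order behind Col18a1 was Fn1 (93.03 FPKM), Sparc (86.45 FPKM), Nid2 (82.85 FPKM) and Hspg2 (57.79 FPKM). There the intervals of Sparc (84.2 to 88.8 FPKM) and Nid2 (81.2 to 84.5 FPKM) overlapped, so their order is not resolved either. All 61 genes summed to 0.137% of the FPKM of the table in PB and 0.146% in PB-TERRA.

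**Figure D1:**
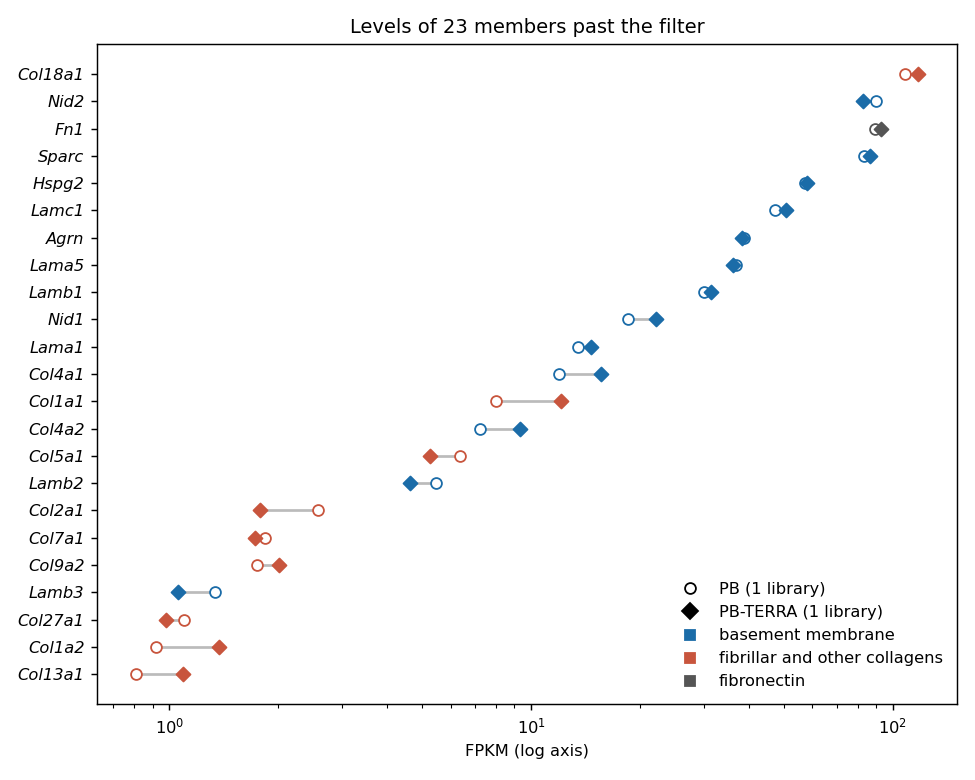
FPKM (log axis) of 23 of the 24 genes past the filter in the PB library (open circles) and the PB-TERRA library (filled diamonds), in order of the PB level. Most symbols of a gene nearly coincide, while Col1a1 had 7.99 and 12.14 FPKM and Col2a1 had 2.57 and 1.78 FPKM.

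In the basement membrane group, none of the 14 genes past the filter reached a log2 ratio of 0.5 in either direction (0 higher and 0 lower). Among all genes past the filter 2.3% were higher and 2.37% lower by this size. Of the 14 genes, 8 were higher and 6 lower in PB-TERRA by any size, against 48.6% higher and 50.9% lower over all genes. The log2 ratios ran from -0.31 for Lamb3 to 0.39 for Col4a1, with a median of 0.03. The summed FPKM of the group was 452 in the PB library and 462 in the PB-TERRA library (log2 ratio 0.03, 95% interval of the reads 0.016 to 0.045). With the median of genes of similar length subtracted it was -0.0088, so the direction of the sum rests on that choice.

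The 2 largest positive values of the group belonged to Col4a1 and Col4a2, the chains of the ubiquitous collagen IV trimer. Col4a1 stood at 11.93 FPKM in PB against 15.64 in PB-TERRA, from 1929 and 2550 reads (log2 ratio 0.39, 95% interval 0.31 to 0.48). Col4a2 had 7.21 and 9.35 FPKM, from 1136 and 1485 reads (log2 ratio 0.37, 95% interval 0.26 to 0.49). Both genes were thus higher in PB-TERRA by nearly the same ratio, beyond their counting error but below the size threshold. The level of Col4a1 was 1.65 times that of Col4a2 in PB and 1.67 times in PB-TERRA, while a collagen IV trimer holds a pair of alpha1 chains and a single alpha2 chain. The remaining 4 collagen IV chains, which form the trimers of kidney, lung and other specialized membranes, stayed below the filter. Col4a5 had 0.24 and 0.31 FPKM, its partner Col4a6 had 0.09 and 0.05, Col4a3 had 0.02 and 0.03, and Col4a4 had 0.01, the lowest value listed, and 0.02. For none of these 4 did the interval lie on 1 side of 0 (50 reads or fewer in each library).

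Col4a1 and Col4a2 lie head to head on the chromosome, as do the other pairs of collagen IV genes. Their promoter windows, 250 bases before to 50 bases after the start, are shown because the members that differed together here share them. The sequences are those of RefSeq on GRCm38.p6, a later build than the mm9 named by the submitters' processing notes, each printed 5′ to 3′ on the strand of its gene. The Col4a1 window is chr8:11312777-11313076 on the minus strand, and the Col4a2 window is chr8:11312555-11312854 on the plus strand. The annotated starts are 21 bases apart, and the windows share 78 bases, which are reverse complements of each other. The library kit does not mark strand, so reads from the short stretch that both transcripts cover cannot be told apart. Nid1 (chr13:13437352-13437651, plus strand) and Col1a2 (chr6:4505368-4505667, plus strand), further genes with a higher value in PB-TERRA, are shown for comparison. Capitals mark the GC box GGGCGG and the CCAAT box CCAAT on either strand.
Col4a1: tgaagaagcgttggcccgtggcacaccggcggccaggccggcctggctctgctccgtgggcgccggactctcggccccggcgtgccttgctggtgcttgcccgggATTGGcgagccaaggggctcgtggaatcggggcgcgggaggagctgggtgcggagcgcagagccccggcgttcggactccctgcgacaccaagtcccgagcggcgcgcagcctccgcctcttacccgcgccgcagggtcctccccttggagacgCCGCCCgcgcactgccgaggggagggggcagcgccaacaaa
Col4a2: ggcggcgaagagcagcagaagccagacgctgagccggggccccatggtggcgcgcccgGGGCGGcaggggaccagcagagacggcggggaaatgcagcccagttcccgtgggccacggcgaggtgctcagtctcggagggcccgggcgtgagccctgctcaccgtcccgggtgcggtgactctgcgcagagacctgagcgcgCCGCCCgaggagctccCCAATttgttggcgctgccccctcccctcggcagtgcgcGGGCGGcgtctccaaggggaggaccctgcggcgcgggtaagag
Nid1: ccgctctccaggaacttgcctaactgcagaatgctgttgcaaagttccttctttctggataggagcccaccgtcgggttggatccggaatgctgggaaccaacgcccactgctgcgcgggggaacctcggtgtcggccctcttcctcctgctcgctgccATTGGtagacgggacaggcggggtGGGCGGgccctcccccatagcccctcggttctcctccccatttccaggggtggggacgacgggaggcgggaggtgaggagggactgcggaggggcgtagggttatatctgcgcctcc
Col1a2: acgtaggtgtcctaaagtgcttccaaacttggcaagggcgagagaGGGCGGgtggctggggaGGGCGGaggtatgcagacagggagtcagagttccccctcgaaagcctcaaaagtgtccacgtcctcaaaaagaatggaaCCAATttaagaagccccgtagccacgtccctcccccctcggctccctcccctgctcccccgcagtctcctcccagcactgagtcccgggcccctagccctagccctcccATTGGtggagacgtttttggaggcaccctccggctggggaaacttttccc

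Each of the 4 windows held at least 1 GC box and 1 CCAAT box. The 4 were taken from genes higher in PB-TERRA, so they do not compare higher with lower genes. Among the 20 windows of members past the filter, 14 held a GC box and 7 a CCAAT box. Of windows not shown, those of the lower Lamb2 and of Sparc held neither, and that of the slightly lower Col7a1 held both. The GC box was found in 30 of the 49 windows of 44 members (61.2%) and in 35.7% of all 32851 windows of the promoter table. Among the 16 windows of the basement membrane group 11 held it. The CCAAT box was found in 15 of the 49 windows (30.6%), and in 37.4% of all windows. The TATA box TATAAA was in 5 of the 49 windows and in 13.6% of all, and the AP-1 motif TGANTCA in 1 of 49 and in 7.81%. The GATA motif AGATAA was in 2 of 49 windows and in 11.2% of all, and the hypoxia response core ACGTG in 5 of 49 and in 19.6%. None of these differences was tested, and both strands were searched for each motif. A match is a description of the letters and not of a bound site. The members' windows are not independent, since several genes have more than 1 window and the Col4a1 and Col4a2 windows overlap.

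Among laminin chains, the alpha1 and alpha5 chains predominated, as did beta1 among the beta chains. Lama5, the alpha chain of the laminin on which mESCs self-renew well, had 36.96 and 36.10 FPKM (PB first, here and below; log2 ratio -0.03, 95% interval -0.07 to 0.0055). Lama1, the alpha chain of the earliest embryonic laminin, had 13.48 and 14.63 FPKM (log2 ratio 0.12, 95% interval 0.05 to 0.19). Lama5 was therefore 2.74 times as abundant as Lama1 in PB and 2.47 times in PB-TERRA. Lamb1 had 30.10 and 31.51 FPKM (log2 ratio 0.07, 95% interval 0.0051 to 0.13), and Lamc1, the gamma chain common to most laminins, had 47.17 and 50.55 FPKM (log2 ratio 0.10, 95% interval 0.06 to 0.14). The 3 chains of the earliest embryonic laminin (Lama1, Lamb1 and Lamc1) all had intervals above 0, and the largest of their log2 ratios was 0.12. With the median of genes of similar length subtracted, the log2 ratios were 0.06 for Lama1, 0.03 for Lamb1 and 0.06 for Lamc1, and that of Lama5 was -0.11, outside its counting interval. These small values, and the calls of Lama1 and Lamb1, therefore rest on that choice.

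Lamb2, an alternative beta chain of muscle and kidney basement membranes, went the other way with 5.47 and 4.63 FPKM (log2 ratio -0.24, 95% interval -0.39 to -0.09). The share of Lamb1 in the sum of Lamb1 and Lamb2 was 84.6% in PB and 87.2% in PB-TERRA. Lama3 and Lamb3 are chains of the epidermal laminin. Lamb3 had 1.34 and 1.06 FPKM (log2 ratio -0.31, 95% interval -0.73 to 0.04), and Lama3 stayed below the filter at 0.70 and 0.65 FPKM. Lama2, Lama4 and Lamc3 had at most 0.54 FPKM.

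Summed over the chains, the alpha chains reached 51.71 FPKM in PB against 51.88 in PB-TERRA, and the beta chains 36.91 against 37.20. The log2 ratio of the reads was 0.00049 for the alpha chains (95% interval -0.03 to 0.03) and 0.02 for the beta chains (95% interval -0.04 to 0.07).

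The nidogens, which bridge laminin and collagen IV, differed in direction. Nid1 had 18.53 and 22.19 FPKM, from 2726 and 3290 reads (log2 ratio 0.26, 95% interval 0.19 to 0.33). Nid2 had 89.77 and 82.85 FPKM, from 10682 and 9938 reads (log2 ratio -0.12, 95% interval -0.16 to -0.08). With GC content and length taken off, the log2 ratio of Nid2 was -0.06. The intervals of the pair do not overlap, and the level of Nid2 over Nid1 was 4.84 in PB and 3.73 in PB-TERRA. Their sum was 108 FPKM in PB and 105 in PB-TERRA.

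The proteoglycans and Sparc were nearly equal in the libraries. Hspg2 had 57.18 and 57.79 FPKM, from 19976 and 20352 reads (log2 ratio 0.02, 95% interval -0.01 to 0.04). Agrn had 38.73 and 38.29 FPKM (log2 ratio -0.02, 95% interval -0.06 to 0.03). Sparc, a matricellular protein that binds collagen IV, had 83.46 and 86.45 FPKM (log2 ratio 0.05, 95% interval -0.0042 to 0.11). For these 3 genes the intervals hold 0 and end at 0.11 or below. Corrections for length and GC content moved 2 of them past these intervals, Hspg2 to -0.06 with length taken off and Sparc to 0.12 with GC content and length taken off. Fibronectin (Fn1), the adhesion protein bound by integrins, had 89.17 and 93.03 FPKM (log2 ratio 0.06, 95% interval 0.03 to 0.09). With length taken off its log2 ratio was 0.0044, below this interval.

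**Figure D2:**
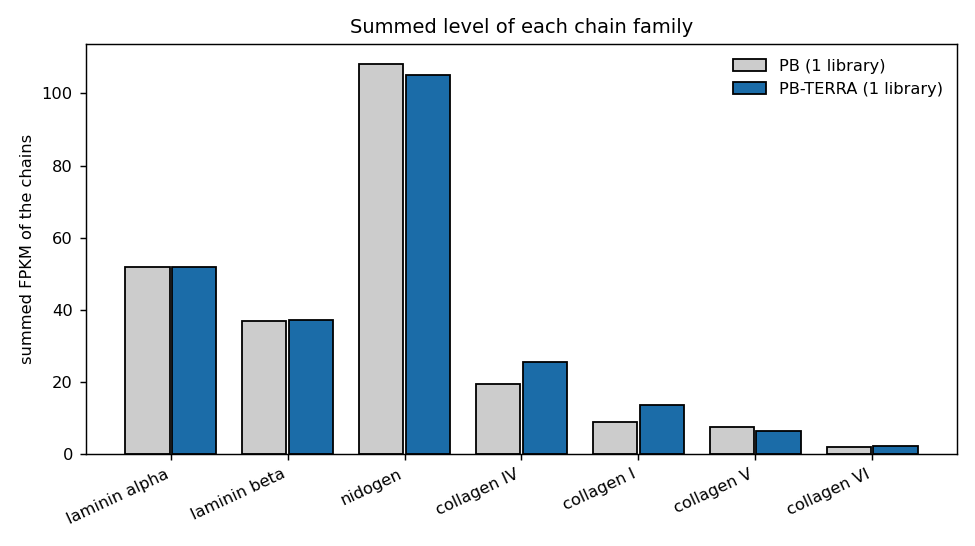
Summed FPKM of the alpha and beta chains of laminins, of the nidogens and of collagens IV, I, V and VI in the PB library (grey) and the PB-TERRA library (blue), 1 library each and without error bars. Collagen IV had 19.5 and 25.4 FPKM and collagen I had 8.91 and 13.5, while the laminin alpha chains had 51.7 and 51.9.

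Collagen IV summed over its 6 chains reached 19.5 FPKM in PB against 25.4 in PB-TERRA (log2 ratio of the reads 0.38, 95% interval 0.32 to 0.45). This interval lies above those of the laminin alpha and beta chains and of the nidogens (log2 ratio of the reads -0.03, 95% interval -0.07 to 0.0037). The level of Col4a1 over Lamc1 was 0.253 in PB and 0.309 in PB-TERRA.

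Among the 9 fibrillar and other collagens past the filter, 2 were higher and 1 lower by 0.5 or more on the log2 scale, against 2.3% and 2.37% of all genes, and 0 reached a log2 ratio of 1 in either direction (0.44% of all genes were higher and 0.473% lower by that size). By any size, 5 were higher and 4 lower (over all genes 48.6% and 50.9%), with a range from -0.51 to 0.60. The median of 0.12 is the value of Col18a1 itself. It was 0.05 without Col18a1 and 0.02 with no filter. The 2 higher genes were the chains of collagen I, the main fibrillar collagen of connective tissue. Col1a1 had 7.99 and 12.14 FPKM, from 1155 and 1770 reads (log2 ratio 0.60, 95% interval 0.50 to 0.71). Col1a2 had 0.92 and 1.37 FPKM, from 117 and 175 reads (log2 ratio 0.53, 95% interval 0.22 to 0.92). Col1a2 passed the filter only through PB-TERRA, where it was higher, and its log2 ratio was 0.30 with a pseudocount of 1 FPKM. Col1a1 was 8.68 times as abundant as Col1a2 in PB and 8.86 times in PB-TERRA. A collagen I heterotrimer holds a pair of alpha1 chains and a single alpha2 chain.

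The gene that was lower was Col2a1, the fibrillar collagen of cartilage, which the early embryo also expresses, with 2.57 and 1.78 FPKM from 321 and 224 reads (log2 ratio -0.51, 95% interval -0.78 to -0.28). Its value lies just past the threshold. It was -0.36 with a pseudocount of 1 FPKM and -0.48 with GC content and length taken off, both short of the threshold. Col5a1, whose chain helps to start collagen fibrils, had 6.38 and 5.25 FPKM (log2 ratio -0.28, 95% interval -0.40 to -0.16). The fibrillar collagens therefore went both ways. Summed over its chains, collagen I had a log2 ratio of the reads of 0.60 (95% interval 0.50 to 0.70), and collagen V one of -0.26 (95% interval -0.37 to -0.15).

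Col18a1, whose C-terminal fragment is endostatin, had 108.15 and 117.77 FPKM, from 13266 and 14562 reads (log2 ratio 0.12, 95% interval 0.09 to 0.16). It held 77.8% of the summed FPKM of the 38 collagens in PB and 77.2% in PB-TERRA. The summed FPKM of these collagens was 139 and 152, a log2 ratio of 0.13 (95% interval of the reads 0.10 to 0.16), and without Col18a1 it was 30.8 and 34.7 (log2 ratio 0.17, 95% interval of the reads 0.09 to 0.21). The remaining 4 genes past the filter had intervals that held 0. Col13a1, a transmembrane collagen that also passed only through PB-TERRA, had 0.81 and 1.09 FPKM (log2 ratio 0.39, 95% interval -0.07 to 0.95), and Col9a2, of cartilage collagen IX, had 1.75 and 2.01 FPKM (log2 ratio 0.19, 95% interval -0.17 to 0.57). Col7a1, of the anchoring fibrils of skin, had 1.84 and 1.73 FPKM (log2 ratio -0.08, 95% interval -0.29 to 0.12). Col27a1, a fibrillar collagen that passed only through PB, where it was higher, had 1.10 and 0.98 FPKM (log2 ratio -0.15, 95% interval -0.46 to 0.13).

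**Figure D3:**
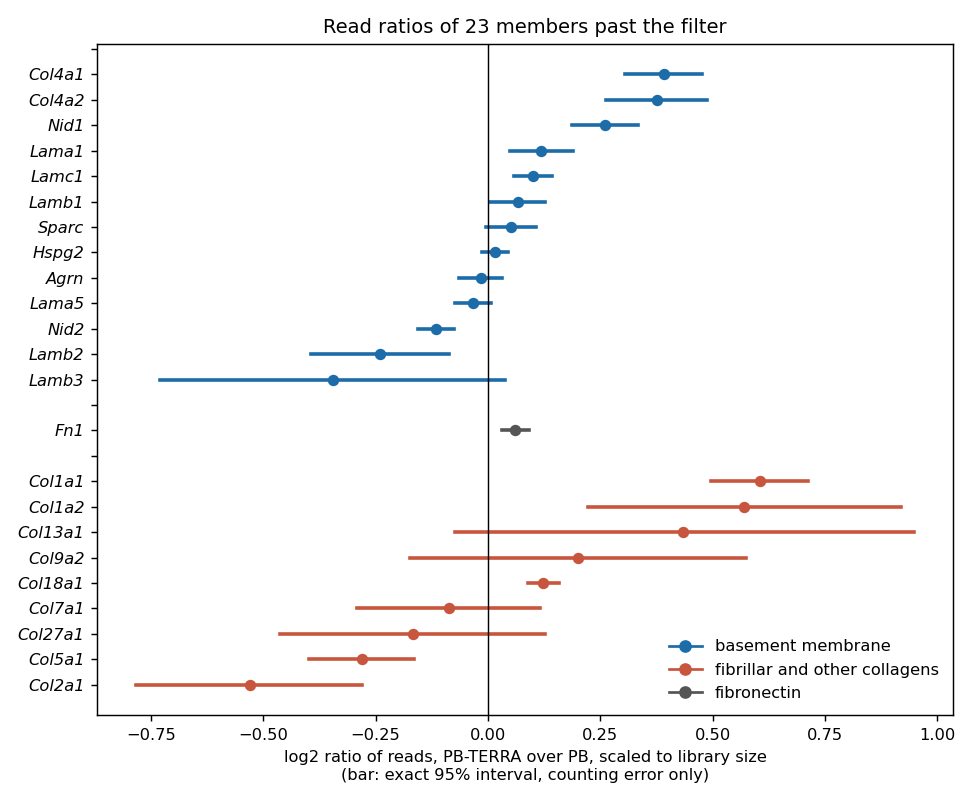
Log2 ratio of reads, PB-TERRA over PB, of 23 of the 24 genes past the filter by group, with exact 95% intervals for counting error only. Col4a1, Col4a2, Nid1, Col1a1 and Col1a2 stand to the right of 0, and Lamb2, Nid2, Col5a1 and Col2a1 to the left.

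Counting intervals lay above 0 for 6 and below 0 for 2 of the 14 basement membrane genes, and for 3 and 2 of the 9 other collagens. Over all genes past the filter, they lay above 0 for 18.2% and below 0 for 17.6%. The members are long and many are abundant, which makes their intervals narrow. Of the 16 members with at least 1000 reads in PB, the interval lay above 0 for 9 and below 0 for 2. Of all 5184 genes with as many reads it lay above 0 for 26.4% and below 0 for 22.7%. No count here was corrected for gene length, and genes of 6000 to 10000 bases had a median log2 ratio of 0.04. Subtraction of the median over genes of similar length left 0.06 for Lama1, 0.03 for Lamb1 and 0.0044 for Fn1. It left -0.06 for Agrn and Hspg2 and -0.11 for Lama5. The numbers above and below 0 therefore rest in part on that choice. These intervals hold no spread between cultures, so they compare the libraries and not the conditions.

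Of the 37 members below the filter, 29 were fibrillar and other collagens and 8 were basement membrane genes, with FPKM from 0.01 to 0.91. Col9a1 and Col19a1 were listed at the lowest value, 0.01 FPKM, in both libraries. Among the 29 collagens, 14 were higher, 10 lower and 5 equal in PB-TERRA, and the shares over all genes under the filter were not taken. Their reads summed to 1014 and 1225 (log2 ratio 0.26, 95% interval 0.14 to 0.38). Those of the 8 basement membrane genes summed to 327 and 315 (log2 ratio -0.07, 95% interval -0.29 to 0.16).

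For 6 of the 29 low collagens the interval lay above 0, and for 1 below, against 2.97% and 2.35% of all genes under the filter. Those shares are over genes not matched for reads or length. The collagens are long, so at equal FPKM they hold more reads and have narrower intervals. These 7 are named after their values were seen. Col3a1, the fibrillar collagen that accompanies collagen I in many tissues, had 0.21 and 0.47 FPKM from about 28 and 64 reads (1.18 on the log2 scale of reads, 95% interval 0.52 to 1.88). Col12a1, which attaches to collagen I fibrils, had 0.34 and 0.55 FPKM from about 98 and 160 reads (0.70 on that scale, 95% interval 0.32 to 1.07). Col11a1, a minor fibrillar chain, had 0.52 and 0.76 FPKM from about 98 and 144 reads (0.54 on that scale, 95% interval 0.16 to 0.93).

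Col8a1, a network-forming collagen of vessels and cornea, had 0.06 and 0.23 FPKM from about 7 and 29 reads (2.04 on the log2 scale of reads, 95% interval 0.82 to 3.47). Col25a1 had about 5 and 15 reads, and Col14a1 was listed at 0.01 FPKM in PB and at 0.05 in PB-TERRA. The FPKM of these genes have 1 significant digit or 2, so their read numbers can be off by about 1 read. With 1 read moved against the difference in each library, a check chosen after seeing the data, 4 of the 6 intervals stayed above 0, those of Col14a1 and Col25a1 held 0, and the 1 below 0 stayed there. Col6a1, a chain of the beaded-filament collagen, was the 1 gene with an interval below 0, with 0.40 and 0.21 FPKM from about 38 and 20 reads (-0.94 on that scale, 95% interval -1.80 to -0.12). Its neighbour and trimer partner Col6a2 had 0.68 and 0.91 FPKM (0.42 on that scale, 95% interval -0.08 to 0.92).

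Position on the chromosome was not used to choose the genes. By the order of protein-coding genes in RefSeq, 9 pairs of members are direct neighbours. Col4a1 and Col4a2, both past the filter, had log2 ratios of the reads of 0.39 and 0.37. Of the pairs under the filter, Col3a1 and Col5a2 went in opposite directions (log2 ratios of the reads 1.18 and -0.36), as did Col6a2 and Col6a1 (0.42 and -0.94) and Col4a5 and Col4a6 (0.38 and -0.92). In the last of these pairs both intervals held 0. Those of Col5a2 (-0.91 to 0.19) and Col6a2 (-0.08 to 0.92) held 0 as well, so the direction of these genes is not resolved. Col6a5 lies between Col6a6 and Col6a4, and the 3 genes had 0.17, -0.86 and 0.38. All 3 intervals held 0, and Col6a6 had only about 9 and 5 reads.

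Gene length moved with the log2 ratio in these libraries. Genes under 1000 bases had a median log2 ratio of -0.06, and genes of 6000 to 10000 bases one of 0.04. The basement membrane genes past the filter have a median length of 6256.5 bases, against 2801 bases over all genes. After subtraction of the median over genes of similar length, the median of the basement membrane group was -0.0083, so its direction changed. That of the other collagens was 0.09, and 0.03 without Col18a1. Col4a1 (0.37), Col4a2 (0.33), Nid1 (0.22) and Col1a1 (0.56) kept most of their log2 ratio, Col1a2 stood at 0.49, just short of the threshold, and Fn1 at 0.0044. The part of gene length in each single value was not tested.

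**Figure D4:**
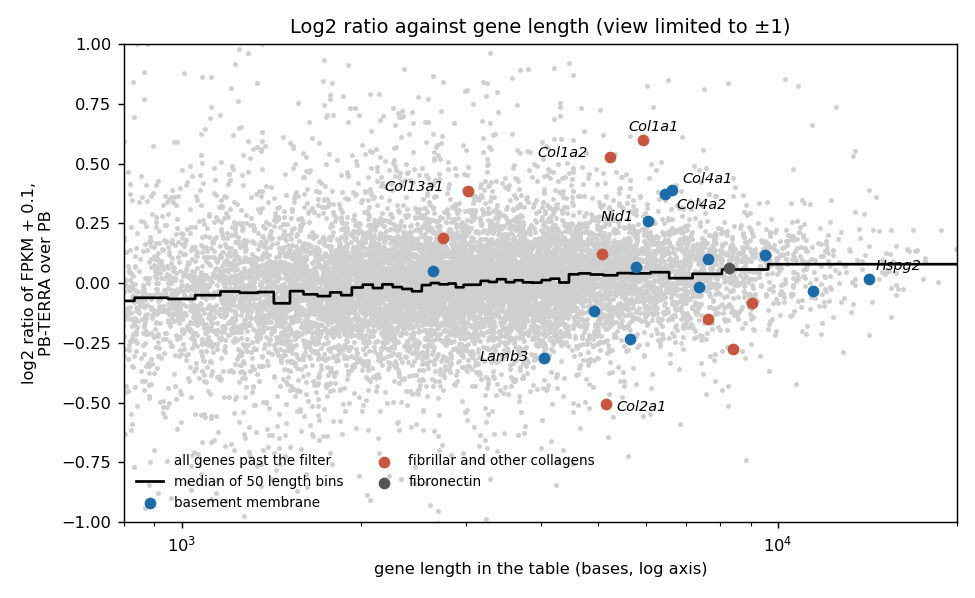
Log2 ratio of FPKM + 0.1, PB-TERRA over PB, against gene length (log axis) for all genes past the filter (grey, view limited to 1 in either direction), with the median of 50 length bins as a line and 23 of the members in colour. The median is -0.06 for genes under 1000 bases and 0.08 for those over 10000, and Col1a1, Col1a2, Col4a1, Col4a2 and Nid1 lie above it.

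Genes that act on collagen after synthesis were looked at as a list of enzymes, chaperones and export factors. Of the 30 that were measured 23 passed the filter, 9 of them higher and 14 lower in PB-TERRA (over all genes 48.6% and 50.9%). Their median log2 ratio was -0.07. None was higher by 0.5 (0 genes), and 1 of the 23 was lower, against 2.3% and 2.37% of all genes. The most abundant were P4hb, a subunit of prolyl 4-hydroxylase (160.08 and 144.78 FPKM, log2 ratio -0.14), and Ppib, a prolyl isomerase (117.09 and 120.50 FPKM, log2 ratio 0.04). The gene lower by at least 0.5 was Loxl2, a lysyl oxidase that crosslinks collagen IV, with 8.01 and 5.09 FPKM (log2 ratio -0.64, 95% interval -0.80 to -0.51). Genes named after their values were seen include P4ha1 (12.66 and 10.36 FPKM) and P4ha2 (7.19 and 5.43 FPKM), catalytic subunits of prolyl 4-hydroxylase, and the collagen chaperone Serpinh1 (46.06 and 40.61 FPKM). Bmp1, a protease that trims fibrillar procollagens, had 5.88 and 8.05 FPKM (log2 ratio 0.45, 95% interval 0.30 to 0.61). Over the list, the counting interval lay above 0 for 5 genes (Bmp1, Loxl4, Adamts14, Sec23a and Pcolce) and below 0 for 8 of the 23, against 18.2% and 17.6% of all genes. P4ha3, the third catalytic subunit, stayed below the filter at 0.04 and 0.18 FPKM.

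P4ha1, P4ha2 and Plod2 also belong to a list of 20 genes that are induced by low oxygen. Of the 18 past the filter 1 was higher (Plod2, 27.14 and 27.64 FPKM) and 17 lower (50.9% over all genes), with a median log2 ratio of -0.36. By at least 0.5, 4 were lower (Ndufa4l2, Aldoc, Egln3 and Bnip3), against 2.37% of all genes. The most abundant were Mif (1499 and 1196 FPKM) and Aldoa (1257 and 1050 FPKM). The part of this list in the levels of the collagen enzymes was not tested.

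Of 26 receptors of matrix proteins 18 passed the filter, 11 higher and 7 lower (over all genes 48.6% and 50.9%). Their median log2 ratio was 0.06, with none past 0.5 (0 genes in either direction, against 2.3% and 2.37% of all genes). The most abundant were Bcam, a receptor of laminin alpha5 (73.01 and 76.78 FPKM, log2 ratio 0.07), and Itga3, an integrin chain for laminin (69.25 and 71.66 FPKM, log2 ratio 0.05). Itga6, the chain of the main laminin integrin of mESCs, named after its value was seen, had 30.23 and 35.40 FPKM (log2 ratio 0.23, 95% interval 0.17 to 0.29). The counting interval lay above 0 for 7 of the 18 receptors and below 0 for 1, against 18.2% and 17.6% of all genes.

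Of 17 proteases and inhibitors that act on matrix 13 passed the filter, 9 higher and 4 lower (over all genes 48.6% and 50.9%). Their median log2 ratio was 0.13. The most abundant were the membrane metalloproteinase Mmp14 (20.34 and 20.27 FPKM, log2 ratio -0.0049) and the inhibitor Timp1 (18.07 and 18.79 FPKM, log2 ratio 0.06). The counting interval lay above 0 for 3 of the 13 and below 0 for 2, near the 18.2% and 17.6% of all genes. Higher by at least 0.5, as 2.3% of all genes were, were Timp3, an inhibitor that is held in the matrix (2.63 and 4.43 FPKM, log2 ratio 0.73, 95% interval 0.54 to 0.96), and the plasminogen activator Plat (0.77 and 1.21 FPKM, log2 ratio 0.59, 95% interval 0.10 to 1.20), which passed the filter only through PB-TERRA. Of 15 other basement membrane proteins 7 passed the filter, 4 higher and 3 lower (over all genes 48.6% and 50.9%). Their median was 0.01, and 0 went past 0.5, against 2.3% and 2.37% of all genes. Ntn1 (15.19 and 16.22 FPKM, log2 ratio 0.09) and Fbln1 (11.78 and 10.27 FPKM, log2 ratio -0.20) were the most abundant.

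Markers of the cells that could carry these transcripts were set beside them. All 9 markers of undifferentiated mESCs passed the filter, 5 higher and 4 lower (over all genes 48.6% and 50.9%), with a median of 0.04. They were led by Dppa5a (1162 and 1040 FPKM) and Pou5f1 (745 and 773 FPKM). The markers of the labelled cell type were thus abundant in both libraries. Of 14 primitive endoderm markers 11 passed the filter, 10 higher and 1 lower (over all genes 48.6% and 50.9%), with a median log2 ratio of 0.30. Their summed level was 38.5 and 42.8 FPKM, while their summed reads, most of them from the long Lrp2, were 7929 and 8029 (log2 ratio 0.0065, 95% interval -0.04 to 0.05). Higher by at least 0.5, as 2.3% of all genes were, were Gata6 (1.22 and 2.26 FPKM, log2 ratio 0.84) and Pdgfra (0.51 and 1 FPKM, log2 ratio 0.85), which passed the filter only through PB-TERRA. The most abundant were Lrp2 (15.55 and 14.10 FPKM, log2 ratio -0.14) and Dab2 (5.04 and 6.35 FPKM, log2 ratio 0.33). The interval lay above 0 for 5 of the 11 and below 0 for 1 (over all genes 18.2% and 17.6%). Among the transcription factors of the list, named after their values were seen, Gata6, Sox7 (1.38 and 1.86 FPKM) and Foxa2 (0.17 and 0.47 FPKM, below the filter) had intervals above 0. Those of Gata4 (1.86 and 2.31 FPKM), Sox17 (0.32 and 0.40) and Hnf4a (0.47 and 0.45) held 0. No marker of the list was at the lowest value. The part of primitive endoderm cells in the higher Col4a1, Col4a2, Nid1 and Lama1 was not tested.

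Of 9 parietal endoderm markers 7 passed the filter, 4 higher and 3 lower (over all genes 48.6% and 50.9%). Their median was 0.0076, with a summed level of 340 FPKM in PB and 332 in PB-TERRA. They were led by Krt8 (142 and 141 FPKM) and Krt18 (112 and 116 FPKM), and Plat was higher as above. The counting interval lay above 0 for Plat (1 of the 7, against 18.2% of all genes) and below 0 for 2 (against 17.6%), the keratin Krt19 (53.46 and 42.12 FPKM) and the receptor Pth1r (3.47 and 2.55 FPKM). Of 15 fibroblast markers 9 passed the filter, 5 higher and 4 lower (over all genes 48.6% and 50.9%). Their median was 0.04, with a summed level of 241 FPKM in PB and 224 in PB-TERRA. The most abundant, Tagln (111 and 89.4 FPKM) and Vim (103 and 106 FPKM), are also made by mESCs. The counting interval, above 0 for 18.2% and below 0 for 17.6% of all genes, lay above 0 for 1 of the 9, the smooth muscle actin Acta2 (9.03 and 12.38 FPKM, log2 ratio 0.45, 95% interval 0.29 to 0.62). It lay below 0 for 2, Tagln and the microfibril gene Fbn1 (1.54 and 1.31 FPKM). Thy1 had 9.16 and 8.39 FPKM, Twist1 1.46 and 1.60, and Pdgfrb 0.94 and 1.05. The 6 markers below the filter had from 0.01 to 0.56 FPKM, among them the matrix genes Dcn (0.38 and 0.36), Postn (0.06 and 0.08) and Lum (0.06 and 0.04), and the transcription factor Prrx1 (0.01, the lowest value listed, and 0.03). All of these but Tagln and Vim are named after their values were seen. The part of such cells in the higher Col1a1 and Col1a2 was not tested.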

How the data were processed

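The 46C mESCs with the empty vector (PB) and those with the TERRA insert (PB-TERRA) gave 1 RNA-seq library each, in 1 table of 18888 genes. The FPKM were deposited by the authors with 2 decimals and a lowest value of 0.01. The header names no unit, and the unit was inferred from the range of the values and from Cufflinks, which the submitters' processing notes list with HISAT and mm9. The annotation and the treatment of reads from similar or overlapping genes are not given in the sources used here. The table also holds the authors' fold change, p-value and FDR, which were not used.

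Members were taken by symbol. The members and gene lists were chosen with earlier results of these data known. The main comparison is the log2 ratio of FPKM + 0.1 with no test, a minimum of 1 FPKM in either library and a size threshold of 0.5. The rule for names was every member past the filter (1 is counted but not reported here by name), partners of these, and of each list the 2 most abundant genes and those past the threshold. All other names, of members below the filter or of list genes, were added after the values were seen.

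Reads per library were fitted so that FPKM of genes under 1000 bases with fewer than 12 reads came nearest to whole reads. The fit took 115 bases off the gene length in both libraries, for a reason that is not known. Of 804 such values in PB 83.1%, and of 839 in PB-TERRA 85.7%, lay within 0.2 of a whole number. On simulated tables the fit returned the depth that was put in. In a separate simulation, of reads for 12053 genes with at least 1 FPKM in PB, 95.3% of intervals held the true ratio. Those reads were drawn directly and not calculated from rounded FPKM. That check therefore covers neither the approximation of reads nor genes below 1 FPKM. GC content came from GENCODE M21 transcripts (61 of 61 members). Promoter windows came from RefSeq, which held 44 members. Scripts ran in Python 3.11.15 with scipy 1.17.1, matplotlib 3.10.9, pandas 2.3.3 and numpy 2.4.6. Alternatives were the pseudocount, the filter, the threshold, the scaling and the membership.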

Additional observations from a re-analysis of the deposited data

How the results depend on the processing

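No paired analysis was possible because each condition has 1 library, and no library could be left out for the same reason. Both other pseudocounts left each of the 24 members within its counting interval. So did centring on the median of all genes and median-of-ratios size factors, but their shifts were only -0.0044 and 0. They could not have moved any member past its interval. With a pseudocount of 1 FPKM, the fibrillar and other collagens past 0.5 were 1 higher and 0 lower, in place of 2 and 1. With a mean of at least 5 FPKM as the filter they were also 1 and 0, with no filter 6 and 2, and at a threshold of 1 they were 0 and 0. The shares over all genes with these other filters were not taken, so the 6 and 2 have no background beside them. With the median of similar gene lengths taken off, 1 was higher. With that of similar GC content and length (chosen after seeing the data), 0 were lower. By counting intervals in place of size, 2 of these collagens were lower, and 6 basement membrane genes were higher and 2 lower. The log2 ratio of the summed FPKM of the basement membrane group was -0.0088 with length and 0.046 with GC content and length taken off, in place of 0.03, so its direction rests on the correction chosen. That of the other collagens was 0.098 with length taken off and 0.17 without Col18a1. Taking length off moved 4 of the 24 members beyond their counting interval (Col18a1, Fn1, Hspg2 and Lama5), and taking GC content and length off moved 3 (Hspg2, Nid2 and Sparc). The depth limits members below 1 FPKM, whose intervals are wide, and the lack of replicates limits all of them.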

Other observations

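The table's own annotation gives the term basement membrane to 14 genes that are not members, and they were looked at after the data were seen. Of these, 10 had at least 1 FPKM in either library, 7 higher in PB-TERRA and 3 lower (over all genes 48.6% and 50.9%). Their median log2 ratio was 0.03, and none went past 0.5 (0 genes, against 2.3% and 2.37% of all genes). The largest value was that of Mmrn2, a glycoprotein of the endothelial matrix, with 3.25 FPKM in PB and 4.61 in PB-TERRA, from 308 and 441 reads (log2 ratio 0.49, 95% interval of the reads 0.29 to 0.72). Anxa2, a membrane-binding annexin, had 51.70 and 45.87 FPKM (log2 ratio -0.17, 95% interval of the reads -0.28 to -0.07). Dag1, the laminin receptor dystroglycan, had 65.03 and 66.74 FPKM (log2 ratio 0.04, 95% interval of the reads -0.01 to 0.08). The same term is given in the table to 3 of the 22 genes of the basement membrane group.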
